A study of Monascus purpureus with 9 samples.

Results

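Loss of Set1 was compared with the wild type (WT) in mycelium of Monascus purpureus, a filamentous fungus known for its red, orange and yellow azaphilone pigments. The comparison used 6 RNA-seq libraries, 3 from the Set1 knockout and 3 from WT, all of total RNA from mycelium grown in PDB, a potato dextrose broth, for 2 days. Genes were taken in when they had at least 1 FPKM (fragments scaled to transcript length and to the mapped fragments of the library) in at least 3 of these 6 libraries. This held for 9023 of the 9869 rows of the authors' table, 8496 named gene_ and 527 named NewGene_ with a number. The other 3 libraries of the series came from a Swd3 knockout and were used only for a direct comparison of both knockouts. The labels name neither the parental isolate nor the number of independent knockout strains, nor do they say whether the 3 libraries of a group were separate cultures. The loss of Set1 and the history of the strain therefore cannot be told apart, and p-values reflect the scatter of these libraries alone, and that scatter may be technical.

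Set1 is the histone methyltransferase at the core of COMPASS, a complex of proteins that includes the WD-repeat subunit Swd3 and that methylates lysine 4 of histone H3. In yeast and other fungi this mark is found at the promoters and early coding parts of transcribed genes, and in budding yeast Set1 also takes part in the silencing of genes near telomeres. In filamentous fungi, loss of Set1 or of its partners has been linked to altered growth, sporulation and secondary metabolism, including clusters that are silent in standard culture. The series addressed the part of the complex in pigment production.

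The table pairs no row with a gene name, description, length or coordinate, and 0 rows matched any of the 9270 entries listed for the reference assembly ASM2599979v1. The transcripts of Set1, of the other COMPASS subunits and of the pigment enzymes were not analysed here, and neither the deletion nor the labelled tissue could be checked by name. The 6 libraries had summed FPKM of 722396 to 729434 in the Set1 knockout and 705678 to 715570 in WT. Sequencing depth is unknown. Across genes, which are not independent replicates, Pearson correlations of log2(FPKM + 1) were 0.9945 to 0.9963 between Set1 knockout libraries, 0.9937 to 0.9967 between WT libraries and 0.8866 to 0.8919 between a Set1 knockout and a WT library.

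Most of the transcriptome differed between the Set1 knockout and WT. In the Set1 knockout 3387 genes rose and another 4001 fell (limma with Benjamini-Hochberg adjustment over all 9023 genes, adjusted p under 0.05), which is 37.5% and 44.3% of the genes tested and 81.9% together. The median change was 0.84 among the genes that rose and -0.64 among those that fell (log2, Set1 knockout minus WT). Over all genes the median absolute difference was 0.59, while the median SD between replicates was 0.085 in the Set1 knockout and 0.090 in WT (log2 units, n = 3 each). The libraries of both groups did not overlap for 3430 genes that were higher and 4014 that were lower in the Set1 knockout, 38% and 44.5% of those tested. Of the genes called by limma, 166 had overlapping libraries, and 222 genes without overlap were not called.

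**Figure D1:**
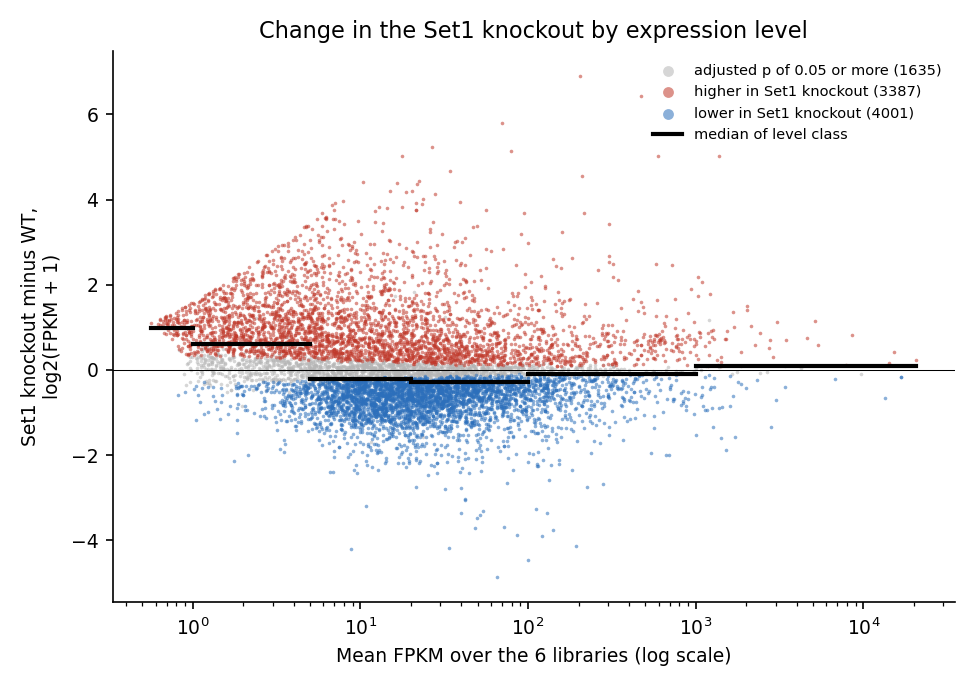
Each point is 1 of the 9023 genes, with its mean FPKM over the 6 libraries on a log axis and the difference of the Set1 knockout from WT in log2(FPKM + 1). Black bars are the medians of 6 level classes, from 0.99 under 1 FPKM through -0.29 at 20 to 100 FPKM to 0.10 at 1000 FPKM and over. The cloud of gains reaches further from 0 than the cloud of losses.

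Many of these changes were modest. When the test asked for a change larger than 1.5-fold rather than for any change (limma's treat), 1715 genes were higher and 1507 lower in the Set1 knockout, 19% and 16.7% of those tested. For 3124 genes, 34.6%, the whole 95% interval of the difference lay within 1.5-fold in either direction. These held 1635 genes that were called, with small but repeatable shifts, and 1489 that were not. Of the 1635 genes in all that missed the threshold, 91.1% were thus bounded within 1.5-fold by their interval. The other 146 were mostly low, with a median of 2.15 FPKM, and 109 of them had a mean under 5 FPKM. For those the data do not show whether a change of that size took place.

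Gains outnumbered losses among the largest changes, while at 2-fold the balance depended on which genes were counted. In the Set1 knockout 1404 genes rose at least 2-fold and 900 fell as much, 15.6% and 9.97% of those tested. Among genes that averaged 5 FPKM or more it was 783 and 860. At least 4-fold the numbers over all genes tested were 367 and 83, at least 8-fold 86 and 19, at least 16-fold 19 and 5, and at least 32-fold 8 and 0. At 1.5-fold they were close to even, with 2298 rises and 2234 falls. These fold changes were taken after adding 1 to each FPKM, so they understate the change of low genes. Taken on FPKM directly, 1333 genes were at least 2-fold higher and 682 at least 2-fold lower in every Set1 knockout library than in every WT library.

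**Figure D2:**
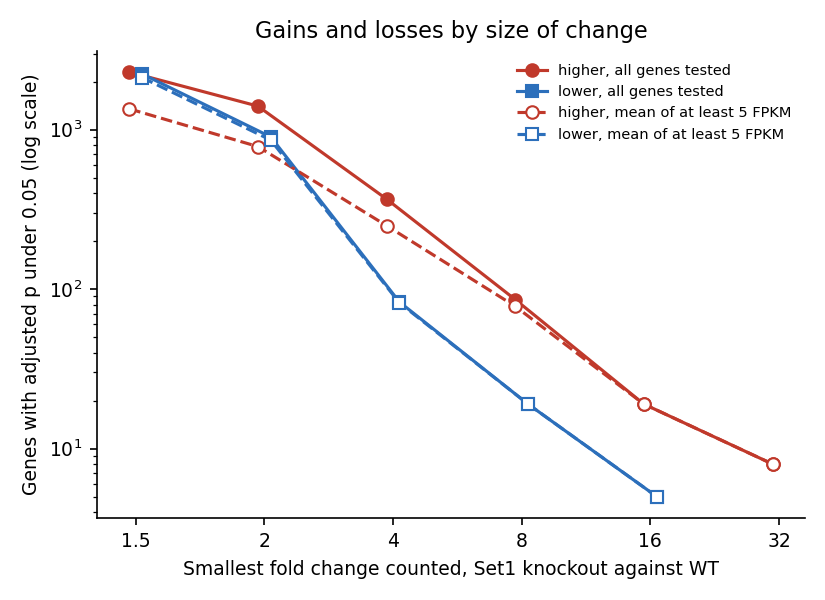
Number of genes with an adjusted p under 0.05 (log axis) whose change reached the fold on the x axis, higher (circles) or lower (squares) in the Set1 knockout, for all genes tested (filled) and for genes that averaged 5 FPKM or more (open). At 1.5-fold the filled symbols nearly coincide at 2298 and 2234 genes, and at 8-fold they stand at 86 and 19.

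The gains came from a lower starting level than the losses. The genes that rose at least 4-fold had a median of 14.5 FPKM in the Set1 knockout and 1.25 FPKM in WT, and 75.5% of them had a WT mean under 5 FPKM. The genes that fell at least 4-fold had a median of 8.40 FPKM in the Set1 knockout and 64.6 FPKM in WT, so most of them were still transcribed above 5 FPKM after the fall, and 25.3% were under it. The 8 genes that rose at least 32-fold spanned 34.1 to 2689 FPKM over the Set1 knockout libraries. In WT libraries they spanned 0 to 84.3 FPKM. Their median per library was 275 to 284 FPKM in the Set1 knockout and 2.79 to 2.97 FPKM in WT. The 5 genes that fell at least 16-fold had medians of 3.12 to 3.68 FPKM in Set1 knockout libraries and 122 to 137 FPKM in WT libraries.

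At 2-fold the excess of gains lay in genes that reached the filter through the Set1 knockout. Of the 9023 genes, 823 reached 1 FPKM in every Set1 knockout library but not in every WT library, and 521 of these reached it in no WT library. The reverse held for 58 genes, 18 of which reached 1 FPKM in no Set1 knockout library. The 521 and 18 genes had to differ, and the direction of the others was in part set by the filter, so none of them is separate support for a direction. Among the 8097 genes with at least 1 FPKM in all 6 libraries, 2613 rose and 3961 fell in the Set1 knockout, and those that moved at least 2-fold split almost evenly, 850 up and 885 down. In the test for more than 1.5-fold 1142 of them were higher and 1491 lower. At least 4-fold, 184 of them rose and 80 fell. This count, chosen after seeing the data, leaves out genes that were under 1 FPKM in either group. The 50 rows just inside the limit of the filter had medians of 1.29 FPKM in the Set1 knockout and 0.550 FPKM in WT, and the 50 just outside it had 1.12 and 0.511 FPKM in the same groups.

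Levels were less spread out in the Set1 knockout. Over all 9869 rows, the SD across genes of log2(FPKM + 1) was 2.15 ± 0.00486 in Set1 knockout libraries and 2.37 ± 0.00210 in WT libraries (SD between libraries, n = 3 each), and the interquartile range was 2.71 ± 0.0119 and 3.38 ± 0.0239 in the same groups. The difference was widest in the lower part of the distribution. The tenth percentile was at 1.37 ± 0.0281 FPKM in the Set1 knockout and 0.387 ± 0.0130 FPKM in WT, and the lower quartile at 4.71 ± 0.178 and 3.11 ± 0.0435 FPKM. The upper quartile went the other way, at 36.3 ± 0.865 FPKM in the Set1 knockout and 41.8 ± 1.15 FPKM in WT. At the top, the 99th percentile was higher in the Set1 knockout, at 1009 ± 8.01 against 891 ± 14.5 FPKM. No library of either group fell in the range of the other for any of these measures. An exact permutation test (two-sided) gave p = 0.1 for each, which is as small as 3 libraries against 3 can give. The share of summed FPKM held by the 10 most abundant genes overlapped, at 18.2 ± 0.411% in the Set1 knockout and 18.1 ± 0.499% in WT (exact permutation p = 0.8, n = 3 each).

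**Figure D3:**
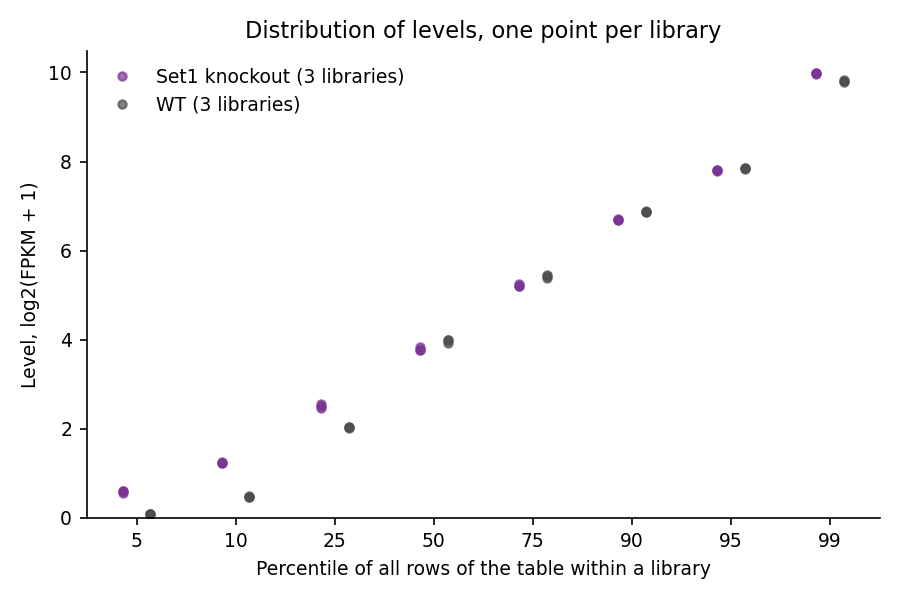
Level in log2(FPKM + 1) at 8 percentiles of the 9869 rows within a library, with 1 point for each of 3 Set1 knockout (purple, left) and 3 WT (grey, right) libraries. The Set1 knockout points lie above WT up to the 25th percentile, below WT from the 50th to the 95th and above it again at the 99th, where they average 9.98 and 9.80.

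Without further scaling, the direction of change followed the level of a gene. In the class of 1 to 5 FPKM, by the mean over the 6 libraries, 62.7% of 1667 genes were called higher and 13.3% lower in the Set1 knockout, beside 37.5% and 44.3% over all genes tested. At 5 to 20 FPKM 31.9% of 3154 genes rose and 48.8% fell, and at 20 to 100 FPKM 26.6% of 2984 rose and 57.7% fell. The balance was less one-sided at 100 to 1000 FPKM, with 38.0% of 993 up and 48.6% down. Of the 96 genes at 1000 FPKM and over, 51.0% rose and 35.4% fell, 49 and 34 genes, but under quantile normalization, where all libraries are forced onto a shared distribution, 40 rose and 43 fell. Under that scaling 1103 genes rose and 1451 fell at 5 to 20 FPKM, against 1006 and 1539 without it. At 20 to 100 FPKM 1080 rose and 1351 fell, against 794 and 1721 without it. At 100 to 1000 FPKM 409 rose and 457 fell, against 377 and 483 without it. The 129 genes under 1 FPKM could be tested only because they reached 1 FPKM in 3 libraries, and 116 of them rose.

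Low genes were measured less tightly, with a median replicate SD at 1 to 5 FPKM of 0.14 in the Set1 knockout and 0.16 in WT (log2 units), against 0.048 and 0.047 at 1000 FPKM and over. With the filter lifted, 1460 genes with a mean under 5 FPKM rose and 238 fell, compared with 1161 and 224 with it. Of the 947 genes at 1 to 5 FPKM that had at least 1 FPKM in all 6 libraries, 454 rose and 187 fell. Under quantile normalization the genes under 5 FPKM became near even, with 629 rises and 598 falls. That scaling takes away the difference in distribution described above.

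**Figure D4:**
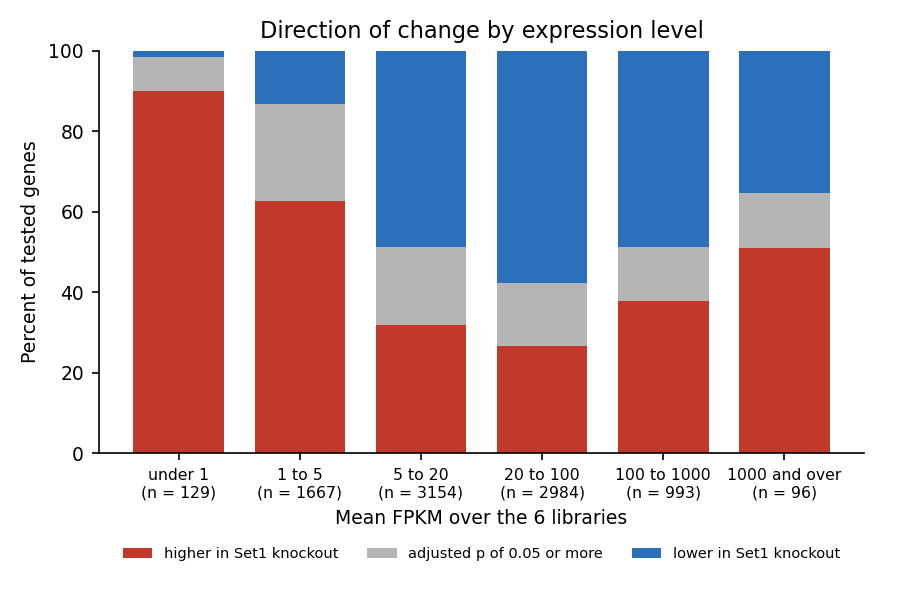
Percent of the tested genes that were higher (red) or lower (blue) in the Set1 knockout or had an adjusted p of 0.05 or more (grey), in 6 classes of mean FPKM over the 6 libraries. The share of rises is lowest at 20 to 100 FPKM, at 26.6%, and reaches 51.0% at 1000 FPKM and over.

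Most genes kept their class of level. Sorted into the same 6 classes by each group's own mean, 5714 genes, 63.3%, stood in the same class in the Set1 knockout and in WT. A further 1651 genes stood 1 class higher in the Set1 knockout and 1429 stood 1 class lower. Moves of 2 or more classes numbered 205 up and 24 down. Of the 669 genes with a WT mean under 1 FPKM, 666 moved up, which the filter largely fixed, since they were tested mainly because of their level in the Set1 knockout. Among the 8318 genes with a mean of 1 FPKM or more in both groups, 1129 moved 1 class up and 1396 moved 1 class down, and 61 moved 2 or more classes up and 21 down.

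Genes that were nearly silent in WT and clearly transcribed in the Set1 knockout were far more numerous than the reverse. Under 1 FPKM in every WT library and at 5 FPKM or more in every Set1 knockout library stood 89 genes, 4 of them NewGene_ rows. Their median per library was 8.42 to 8.99 FPKM in the Set1 knockout and 0.273 to 0.303 FPKM in WT, and the highest averaged 53.1 FPKM in the Set1 knockout. The reverse pattern was met by 2 genes, one of which averaged under 1 FPKM in the Set1 knockout libraries, at 0.833, 0.898 and 0.894 FPKM, against 6.05, 5.48 and 5.72 FPKM in WT libraries. The other is gene_8282, described below. Both patterns choose genes by their levels in these groups, so the values are a description without a test. Of the 89 genes, 87 were also at 5 FPKM or more in every Swd3 knockout library. Such levels were common there over all rows, which include genes transcribed in WT: the lower quartile was 5.13, 4.83 and 4.59 FPKM in those libraries. Of the 244 rows at 0 in every WT library, 9 reached 5 FPKM in every Swd3 knockout library.

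Rows listed at exactly 0 showed the same lopsidedness, although a 0 in an FPKM table can also be a failed estimate. In every Set1 knockout library 120 rows were above 0 that no WT library had above 0, and their median in the Set1 knockout was 0.717 FPKM. Only 4 rows were above 0 in every WT library and at 0 throughout the Set1 knockout. At 1 FPKM or more in the group that was not at 0, the numbers were 42 and 1. By the rule used here for naming genes, the most abundant of the 42 was gene_8276, which had 13.6, 14.4 and 14.5 FPKM in the Set1 knockout libraries and was listed at 0 in all WT libraries (limma adjusted p = 2.83e-10). The libraries of each group lay close together. Because gene_8276 was chosen for its levels in these groups, the gap between them and the p-value are no separate support for a difference.

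The single gene of the reverse kind was gene_8282. None of the 3 Set1 knockout libraries had it above 0, while WT libraries had 17.9, 15.2 and 19.8 FPKM (limma adjusted p = 4.62e-10). As gene_8282 was also chosen for these levels, the p-value is no separate support for a difference. Its fold change has no bound, because 1 group is listed at 0, and the same holds for gene_8276. In the Swd3 knockout gene_8282 was present, at 9.94, 7.20 and 6.75 FPKM, below every WT library. The table does not say what gene_8282 encodes, so this pattern does not settle which row is the deleted gene.

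Several rows with numbers close to gene_8282 also differed. The 4 rows numbered directly above it all fell in the Set1 knockout, by log2 differences of -1.48 to -2.27. The nearest had 29.8 to 36.4 FPKM in Set1 knockout libraries and 95.7 to 116 FPKM in WT libraries. The third had 36.3 to 46.4 FPKM in Set1 knockout libraries and 178 to 199 FPKM in WT libraries. The 6 tested rows with numbers up to 7 below it, gene_8276 among them, all rose, 3 of them at least 2-fold. Of all tested genes, 37.5% rose and 44.3% fell, 15.6% and 9.97% at least 2-fold. In a symmetric window of 10 numbers to either side, 18 rows were tested, of which 6 rose and 6 fell. Of the 4 rows above, 0 differed from the Swd3 knockout in the direct test described below, and of the 6 below 1 did. Among all genes tested only 13.1% did, so these counts do not set the rows apart. The narrower windows end where the shared direction stops and were chosen after the values were seen, and the table does not say that numbers follow position on a chromosome. Across the whole table, genes that rose at least 2-fold stood in runs of up to 17 consecutive tested gene numbers, and genes that fell in runs of up to 5. Runs of at least 5 numbered 35 for rises, with 234 genes, and 6 for falls, with 30 genes.

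In absolute amount, gains and losses were of similar size. Over the 9023 genes, 150984 FPKM were gained and 133812 FPKM lost in the Set1 knockout, 21.3% and 18.9% of the summed WT level. FPKM values are relative to the library, and this balance follows the scaling. With every library set to a common total the amounts were 142578 and 142776 FPKM, and with scaling by the median of ratios 171687 and 113300 FPKM. The genes that rose held 53.2% to 53.6% of the summed FPKM of these genes in Set1 knockout libraries and 33.6% to 34.0% in WT libraries. The genes that fell held 33.5% to 33.8% in Set1 knockout libraries and 52.7% to 53.0% in WT libraries.

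The 10 genes with the largest gain in FPKM took 19.4% of it and the 100 with the largest gain 57.6%, while the corresponding shares of the loss were 15.5% and 41.1%. Among those 10 gains, 5 were at least 2-fold, and their log2 differences ranged from 0.22 to 5.03. Together they held 81041, 85131 and 82535 FPKM in the Set1 knockout libraries, against 52985, 55791 and 52067 FPKM in the WT libraries. The 10 largest losses held 53362, 56943 and 55240 FPKM in the Set1 knockout libraries, against 74779, 79017 and 74016 FPKM in the WT libraries. Of these losses 5 were at least 2-fold, and none of the 10 gains or 10 losses had overlapping libraries. That was common: of all genes tested, 38% were higher and 44.5% lower in the Set1 knockout without overlap.

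The largest rise in FPKM was that of gene_2080, which had 10293, 11496 and 11041 FPKM in Set1 knockout libraries and 6095, 6692 and 5913 FPKM in WT libraries. Every Set1 knockout library lay above every WT library, but the rule for naming genes required this as well as a call by limma. The mean was 10944 ± 608 FPKM in the Set1 knockout and 6233 ± 407 FPKM in WT (SD, n = 3 each), a ratio of 1.76 and a log2 difference of 0.81 with an SE of 0.06 (limma adjusted p = 3.18e-07). It passed the test for a change above 1.5-fold as well (treat adjusted p = 0.0044). It ranked 6th by mean level in the Set1 knockout and 10th in WT, and took 1.51% and 0.879% of the summed FPKM in those groups.

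The largest fall in FPKM was that of gene_7692, which had 10010, 10880 and 10374 FPKM in Set1 knockout libraries and 15938, 17278 and 15995 FPKM in WT libraries. Again the groups did not overlap, which the same rule required. The means were 10421 ± 437 FPKM in the Set1 knockout and 16404 ± 758 FPKM in WT (SD, n = 3 each), which left 63.5% of the WT level, with a log2 difference of -0.65 and an SE of 0.05 (limma adjusted p = 4.82e-07). Its change did not pass the test for more than 1.5-fold (treat adjusted p = 0.22). It ranked 7th in the Set1 knockout and 4th in WT.

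**Figure D5:**
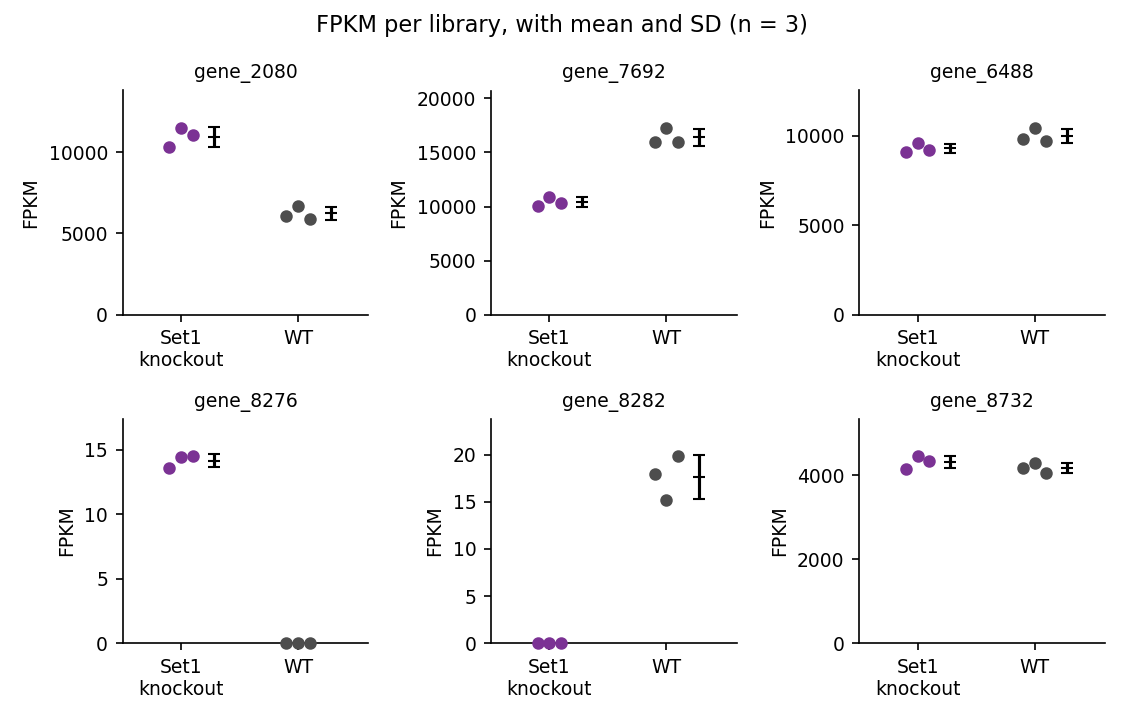
FPKM in each of 3 Set1 knockout (purple, left) and 3 WT (grey, right) libraries for the 6 genes named here, with the mean and SD beside the points where a group is above 0; each panel has its own axis from 0. The groups are apart for gene_2080 and gene_7692 in the upper row and for gene_8276 and gene_8282 in the lower, and overlap for gene_8732.

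Among the genes that missed the threshold with an interval inside 1.5-fold, the most abundant was gene_6488, with 9105, 9587 and 9199 FPKM in Set1 knockout libraries and 9795, 10432 and 9675 FPKM in WT libraries. Its log2 difference was -0.10 (95% interval -0.20 to -0.0042, limma adjusted p = 0.052). The groups did not overlap, and gene_6488 passed the threshold in 6 of the other settings tried, with adjusted p down to 7.84e-07 under quantile normalization. The next, gene_8732, had 4157, 4451 and 4351 FPKM in Set1 knockout libraries and 4167, 4283 and 4054 FPKM in WT libraries. The groups overlapped and the log2 difference was 0.05 (95% interval -0.04 to 0.14, limma adjusted p = 0.25).

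The order of the most abundant genes was partly redrawn. Of the 100 genes with the highest mean in the Set1 knockout, 69 were also among the top 100 in WT, and of the top 10 in each group 9 were shared. The 31 genes that entered the top 100 had a median WT rank of 146, and 13 of them had risen at least 2-fold. Of all genes tested, 15.6% rose and 9.97% fell that much. The farthest entrant stood at 1163, 1164 and 1162 FPKM in the Set1 knockout libraries, where it ranked 81st, against 34.7, 35.1 and 33.8 FPKM in WT libraries, where it ranked 2878th. Another ranked 27th in the Set1 knockout and 1387th in WT. Its levels were 2609, 2689 and 2680 FPKM in Set1 knockout libraries and 82.9, 84.3 and 74.2 FPKM in WT libraries. The 31 genes that left the top 100 had a median rank of 175 in the Set1 knockout, and the lowest ranked 417th. At least 2-fold falls were seen in 8 of them. Entrants and leavers were chosen by their levels in these groups, so their directions are a description without a test.

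NewGene_ rows, whose origin the table does not explain, were mostly low and more often rose. Of the 527 tested, 58.8% rose and 15.4% fell in the Set1 knockout, beside 37.5% and 44.3% of all genes tested. Their median log2 difference was 0.50, against -0.11 for gene_ rows, and their median level was 2.63 FPKM, against 18.5 FPKM. Among all genes at 1 to 5 FPKM, 62.7% rose and 13.3% fell. Of the 148 NewGene_ rows that averaged 5 FPKM or more, 67 rose and 44 fell, with a median of 0.17. That was 45.3% and 29.7%, beside 30.8% and 52.3% of all genes at that level. At least 2-fold, 135 NewGene_ rows rose and 26 fell, beside 1404 and 900 of all 9023 genes tested. Many of them were tested only through the Set1 knockout. Of the 312 NewGene_ rows at 1 FPKM or more in all 6 libraries, 144 rose and 67 fell, 48 and 20 of them at least 2-fold. The 144 and 67 rows were 46.2% and 21.5%, beside 32.3% and 48.9% of all genes at 1 FPKM or more in all 6 libraries. At least 2-fold, 850 of those 8097 genes rose and 885 fell. Over all 527 rows, quantile normalization took the balance away, with 173 rises and 183 falls. At a mean of 5 FPKM or more, 73 NewGene_ rows rose and 52 fell under that scaling. Among gene_ rows at that level, 2559 rose and 3250 fell.

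The Set1 knockout differed from the Swd3 knockout in far fewer genes than from WT. In a direct test within a fit of all 9 libraries, 568 genes were higher and 613 lower in the Set1 knockout than in the Swd3 knockout (limma adjusted p under 0.05), 6.3% and 6.79% of the same 9023 genes, and 13 of these differed at least 2-fold. Over all genes the median absolute log2 difference was 0.11 between the Set1 and Swd3 knockouts and 0.59 between the Set1 knockout and WT. Of the 1404 genes that rose at least 2-fold in the Set1 knockout, 188 (13.4%) differed between the knockouts, 87 higher and 101 lower in the Set1 knockout. Of the 900 genes that fell at least 2-fold, 148 (16.4%) differed, 40 higher and 108 lower in the Set1 knockout. Over all genes tested the share was 13.1%. Both sets were chosen on the same Set1 knockout libraries, which can tilt the direction of these differences. Of the genes named above, gene_8282 and gene_8732 differed between the knockouts. The other 4 did not pass, with limma adjusted p of 0.91 for gene_2080, 0.42 for gene_7692, 0.12 for gene_8276 and 0.27 for gene_6488.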

How the data were processed

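The deposited file holds the authors' FPKM values, 1 row for each gene and 1 column for each library. FastQC, HISAT2 and StringTie were applied per the submitters' processing notes. The sources used here do not give versions, settings, genome build, annotation or use of strand. Low values showed no steps of whole reads: among 26 rows under 0.15 FPKM in Set1 knockout libraries 1 and 2, the log2 ratios filled 19 bins of 0.1 and the fullest held 11.5%. Depth is therefore unknown and no count test was run.

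Genes with at least 1 FPKM in at least 3 of the 6 libraries were fitted as log2(FPKM + 1), without further scaling, with a mean per group, using limma 3.58.1 (R 4.3.3) and moderated variances that follow the level. P-values are two-sided and Benjamini-Hochberg adjusted over all genes tested, with a threshold of 0.05. The model was tested on simulated data in which only a small share of genes changed. In these data 81.9% were called, so that test does not cover this setting. Library measures were compared with exact permutation tests (scipy 1.17.1). Because rows have no names, the rule for named genes took 2 genes up and 2 down: the largest rise and fall in mean FPKM among called genes without overlap, and the most abundant genes listed at 0 in all libraries of 1 group. It added the 2 most abundant genes that were not called and had a 95% interval within 1.5-fold. Members, classes and rules were chosen with earlier results of these data known.

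Alternatives were pseudocounts of 0.5 and 0.1, no filter or a filter at 5 FPKM, 3 scalings, a fit of all 9 libraries, the replicate number as a block, robust moderation and each library left out in turn.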

Additional observations from a re-analysis of the deposited data

Results flagged for a closer look

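The following results differed between the Set1 and the Swd3 knockout by a direct test of the difference in the fit of all 9 libraries. Over all genes tested, 1181 of 9023 differed (limma adjusted p under 0.05). The difference of gene_8282 was -3.15 (log2, Set1 minus Swd3 knockout, limma adjusted p = 1.66e-08), where the Set1 knockout was listed at 0, so the size depends on the pseudocount. The difference of gene_8732 was -0.28 (limma adjusted p = 5.88e-04). It averaged 4320 ± 149 FPKM in the Set1 knockout and 5248 ± 197 FPKM in the Swd3 knockout (SD, n = 3 each), and every Set1 knockout library was lower. The cause of these differences was not tested.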

How the results depend on the processing

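The counts of all rises and falls, of falls of at least 2-fold, of falls above 1.5-fold and of genes bounded within 1.5-fold stayed within 1.5 times their reported values under the alternatives run. Their balance still followed the scaling. Scaling by the median of ratios gave 3676 rises and 3707 falls, and a common total gave 3250 and 4119. At least 2-fold, the numbers were 1512 and 736 with the median of ratios, and 1357 and 978 with a common total. Quantile normalization and the stricter filter moved the low genes. Under quantile normalization 629 genes under 5 FPKM rose and 598 fell, and 173 NewGene_ rows rose and 183 fell. With the filter at 5 FPKM, which tests fewer low genes, the numbers were 209, 50, 90 and 49 in the same order. Counted over genes at 1 FPKM or more in all 6 libraries, an alternative added after seeing the data, 850 genes rose at least 2-fold and 1142 rose above 1.5-fold by treat, and 454 genes under 5 FPKM and 144 NewGene_ rows rose. The log2 difference of gene_8732 was -0.36 under quantile normalization (limma adjusted p = 8.88e-06) against 0.05 without it, and the cause was not tested. gene_6488 passed the threshold with a common total, all 9 libraries, robust moderation, the replicate block, quantile normalization and without WT replicate 3 (adjusted p = 0.045). The replicate block gave 3471 rises and 4099 falls. Deviations of same-numbered libraries correlated at 0.20, 0.25 and -0.09, and those of differently numbered libraries at -0.35 to 0.25. These values do not settle whether the numbers mark pairs. The main fit did not take them as pairs. Depth is unknown, so how far it limits the low genes was not tested.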
